A study of Camponotus floridanus with 48 samples.

Results

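Of 23897 protein-coding transcripts of the Florida carpenter ant, Camponotus floridanus, 3 had 0 reads in every one of the longest larvae and many reads in at least 9 of the shortest, and 0 transcripts showed the opposite. The 3 were XM_020027201.2 of gene LOC105250126, XM_011252570.3 of gene LOC105248030 and XM_025415171.1 of gene LOC105253188. Each was an mRNA of a gene that was read in all 48 larvae, with at most 30.7% of that gene's reads in any larva. The estimate of 0 in the longest larvae was thus that of an isoform and not of a gene. Each transcript also had reads in 4 of the 16 intermediate larvae. Protein-coding transcripts are here those with RefSeq names starting in XM_ or NM_.

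The transcripts were chosen by their estimated reads per library. A transcript counted as present at the longest end only where at least 7 of 14 longest larvae had at least 50 reads of it, and all but at most 1 of the 16 shortest had under 1 read. It counted as present at the shortest end only where all but at most 1 of those 14 had under 1 read, and at least 8 of the 16 shortest had at least 50 reads. The rule took 0.00% of the transcripts at the longest end and 0.0126% at the shortest end. Its values in the longest and shortest larvae chose the transcripts, so they are given as a description, with no test.

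The libraries hold polyA RNA from whole bodies of 48 female larvae at the terminal stage, each a separate animal with no treatment labelled, in a series that asks what accompanies differences in worker size. All came from 1 colony, so the values describe that colony. The shortest 16 larvae measured 4648.07 to 5376.84 µm, the intermediate 16 measured 5395.82 to 6613.4 µm, and the longest 16 measured 6689.42 to 7598.06 µm. These groups cut a continuous range of measured lengths and are not separate treatments or castes.

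The shortest larvae had 36605784 to 63171678 assigned reads, the intermediate 29813896 to 49115346, and the longest 39780542 to 54435893 apart from larvae No. 42 and No. 43. Those 2 longest larvae were the shallowest libraries, with a minimum of 6608779 reads, and the rule left them out. Apart from length, 15 libraries had a score above 20 on the first principal component of all 48 libraries. They were 2 of the 16 shortest, 8 of the 16 intermediate and 5 of the 16 longest larvae. Tissue markers were not examined, because the gene table used here pairs nearly all transcripts with locus numbers and with no product names. For the same reason no function is given for the 3 genes.

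Many animal genes can give several mature mRNAs, called isoforms, by using other start sites, splice sites or polyadenylation sites. The isoforms of a gene share most of their sequence and can differ in a few exons, which can change the protein or the untranslated ends. In social insects, isoforms have been studied beside caste, body size and DNA methylation within genes. A short read from a shared exon fits several isoforms, and salmon, the program behind these values, divides such reads among them by a likelihood model. That model can give an isoform exactly 0 reads, so a 0 here is an estimate and not proof that no molecule was present.

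XM_020027201.2 was present in 10 of the 16 shortest, 4 of the 16 intermediate and 0 of the 16 longest larvae. Its estimated reads had a minimum of 0, a median of 275 and a maximum of 806 in the shortest larvae. In the intermediate larvae the minimum and the median were 0 and the maximum was 926, and in the longest larvae every value was 0. Presence was all or none: 14 of 48 larvae, or 29.2%, had 228 to 926 reads, and the other 34 had exactly 0.

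The intermediate larvae with XM_020027201.2 were 4 of the shortest of that group. No. 62 had 926 reads, No. 64 had 244, No. 77 had 667 and No. 72 had 484. No. 72, at 5653.55 µm, was the longest larva with any read of it, and the next longer larva measured 5690.32 µm. The transcript was present in 14 of the 21 larvae up to that length and in 0 of the 27 beyond it. The remaining 7 larvae in the short range had 0 reads, so presence was not a property of every short larva.

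The level of XM_020027201.2 in TPM (reads per base of transcript, scaled to the same total in each library) was 1.15 ± 1.16 in the shortest, 0.74 ± 1.47 in the intermediate and 0 in the longest larvae (SD, n = 16 each). Its share of all reads of LOC105250126 was 1.28 ± 1.26% in the shortest and 0.658 ± 1.26% in the intermediate larvae (SD, n = 16 each). Where present, its share ran from 0.965% to 3.90%. Its gene LOC105250126 had 90.3 ± 17.4 TPM in the shortest, 75.1 ± 33.2 in the intermediate and 90.9 ± 30.7 in the longest larvae (SD, n = 16 each). The whole gene was therefore read at the long end at about the level of the short end, while this isoform was at 0 there. The bodies were sequenced whole, so fewer cells of a type and less RNA per cell cannot be told apart.

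LOC105250126 has 6 transcripts in the files, 5 of them mRNAs. XM_020027201.2 is 7008 bases long, and XM_025410410.1, the transcript that carried most of the gene's reads, is 6978 bases long. XM_025410410.1 held 67.3 ± 10.5% of the reads in the shortest, 70.0 ± 12.0% in the intermediate and 77.1 ± 11.5% in the longest larvae (SD, n = 16 each). XM_025410411.1, of 6954 bases, took 29.4 ± 10.5%, 26.8 ± 12.4% and 20.6 ± 11.4% of the reads in the same order of groups (SD, n = 16 each). The SDs give the spread of single larvae, and the differences in these shares between the groups were not tested. The isoform missing in long larvae was thus a far smaller part of a gene dominated by these other transcripts.

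XM_011252570.3 was present in 11 of the 16 shortest, 4 of the 16 intermediate and 0 of the 16 longest larvae. Its estimated reads had a minimum of 0, a median of 363 and a maximum of 1701 in the shortest larvae. In the intermediate larvae the minimum and the median were 0 and the maximum was 1941, and in the longest every value was 0. Again no library held a low value: 15 of 48 larvae, or 31.2%, had 167 to 1941 reads, and the other 33 had exactly 0.

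The intermediate larvae with XM_011252570.3 lay over much of that group's length range, unlike the 4 with XM_020027201.2. No. 35 had 1941 reads, No. 27 had 755, No. 19 had 983 and No. 31 had 407. No. 31, at 6320.12 µm, was the longest larva with any read of it, and the next longer larva measured 6348.66 µm. The transcript was present in 15 of the 28 larvae up to that length and in 0 of the 20 beyond it. The highest value of all 48 larvae was in an intermediate larva, No. 35.

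The level of XM_011252570.3 was 2.87 ± 3.26 TPM in the shortest, 1.56 ± 3.23 in the intermediate and 0 in the longest larvae (SD, n = 16 each). Of the reads of LOC105248030, it held 7.80 ± 8.59% in the shortest and 4.17 ± 8.07% in the intermediate larvae (SD, n = 16 each). Where present, its share ran from 2.19% to 26.8%, so it was more than a trace of the gene's reads in some larvae. LOC105248030 as a whole had 35.3 ± 4.88 TPM in the shortest, 31.4 ± 10.2 in the intermediate and 33.2 ± 7.70 in the longest larvae (SD, n = 16 each). These group means differed by less than 1 SD.

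The 6 mRNAs of LOC105248030 fall into pairs of equal length, of 5567, 5546 and 5519 bases. XM_011252570.3 has 5546 bases, as has XM_025411248.1. The main isoform, XM_020026483.2, has 5519 bases and took 54.9 ± 12.2% of the reads in the shortest, 56.5 ± 13.3% in the intermediate and 69.8 ± 12.6% in the longest larvae (SD, n = 16 each). XM_025411248.1 took 15.6 ± 8.71%, 18.7 ± 6.48% and 13.6 ± 7.51% in the same order (SD, n = 16 each). In larva No. 12, of the shortest group, XM_011252570.3 had 1376 reads while XM_025411248.1 and XM_011252571.3, which were read in most larvae, were both at 0. Isoforms so alike in length can be hard to tell apart by short reads, and the part of read assignment in this all-or-none pattern was not tested.

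XM_025415171.1 was present in 9 of the 16 shortest, 4 of the 16 intermediate and 0 of the 16 longest larvae. Its estimated reads had a minimum of 0, a median of 126 and a maximum of 671 in the shortest larvae. In the intermediate larvae the minimum and the median were 0 and the maximum was 649, and in the longest every value was 0. In all, 13 of 48 larvae, or 27.1%, had 107 to 671 reads, and the other 35 had exactly 0.

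The first 4 larvae by length lacked XM_025415171.1, and the longest larva with it was No. 6 at 6542.04 µm. Among the intermediate larvae, No. 35 had 214 reads, No. 77 had 649, No. 72 had 427 and No. 6 had 201. It was present in 13 of the 30 larvae up to 6542.04 µm and in 0 of the 18 beyond, the next of which measured 6559.34 µm. Of the 3 transcripts it was present at the greatest length, in 1 intermediate larva that stood apart from the others with it.

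The level of XM_025415171.1 was 1.37 ± 1.59 TPM in the shortest, 0.64 ± 1.36 in the intermediate and 0 in the longest larvae (SD, n = 16 each). Of the reads of LOC105253188, it held 8.35 ± 9.94% in the shortest and 3.41 ± 7.03% in the intermediate larvae (SD, n = 16 each). Where present, its share ran from 3.35% to 30.7%. LOC105253188 as a whole had 24.6 ± 7.62 TPM in the shortest, 26.3 ± 6.51 in the intermediate and 27.97 ± 4.55 in the longest larvae (SD, n = 16 each). Here too the gene was read at both ends at levels that differed by less than 1 SD.

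LOC105253188 has 8 mRNAs of 4307 to 5332 bases, and XM_025415171.1 is the longest of them. The main isoform, XM_025415178.1, is the shortest of them at 4307 bases. It took 47.3 ± 6.60% of the reads in the shortest, 48.4 ± 6.68% in the intermediate and 45.9 ± 9.25% in the longest larvae (SD, n = 16 each). The other 6 mRNAs took the rest, and XM_025415173.1, of 5265 bases, was also at or near 0 in most larvae of each group. It had at least 50 reads in 3 of the 16 shortest, 3 of the 16 intermediate and 2 of the 16 longest larvae, and under 1 read in 12, 11 and 13 of them.

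**Figure D1:**
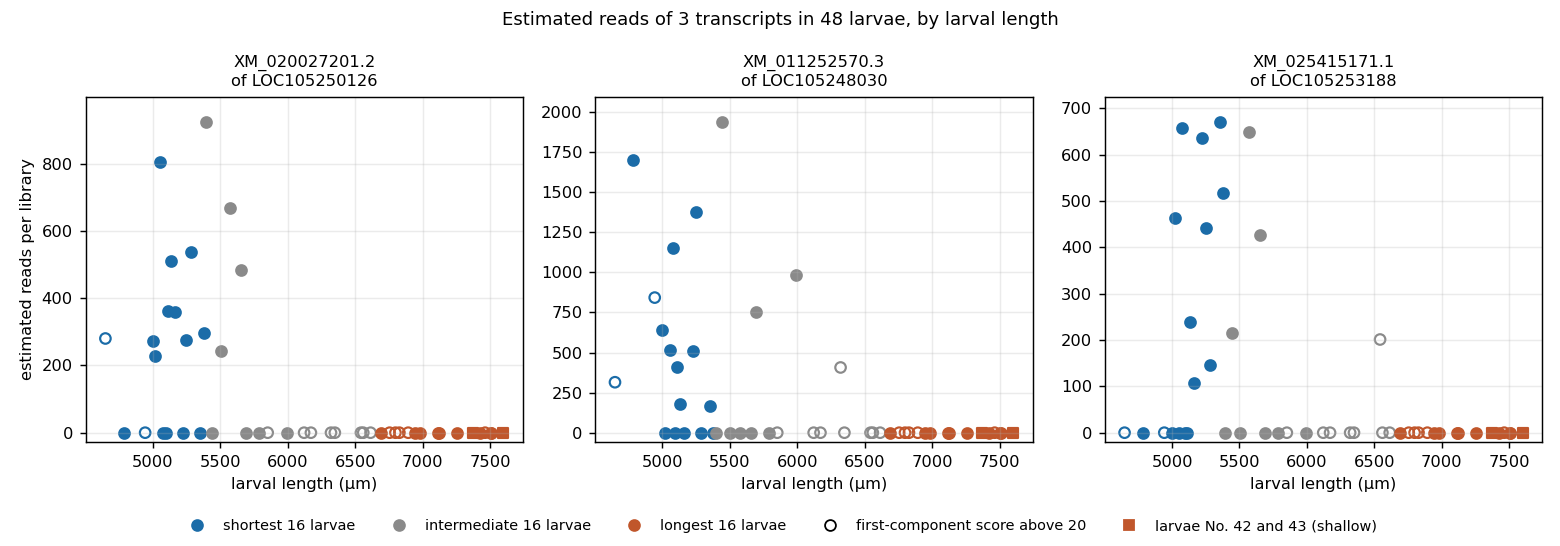
Estimated reads per library (y axis) against larval length in µm (x axis) for the 3 transcripts, 1 panel each, with 1 point per larva coloured by length group. Open points are the 15 libraries that scored above 20 on the first component, and squares are the shallow larvae No. 42 and No. 43. Every larva beyond 5653.55, 6320.12 and 6542.04 µm (left to right) lies at 0, and points at 0 are also seen among the shortest larvae in each panel.

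**Figure D2:**
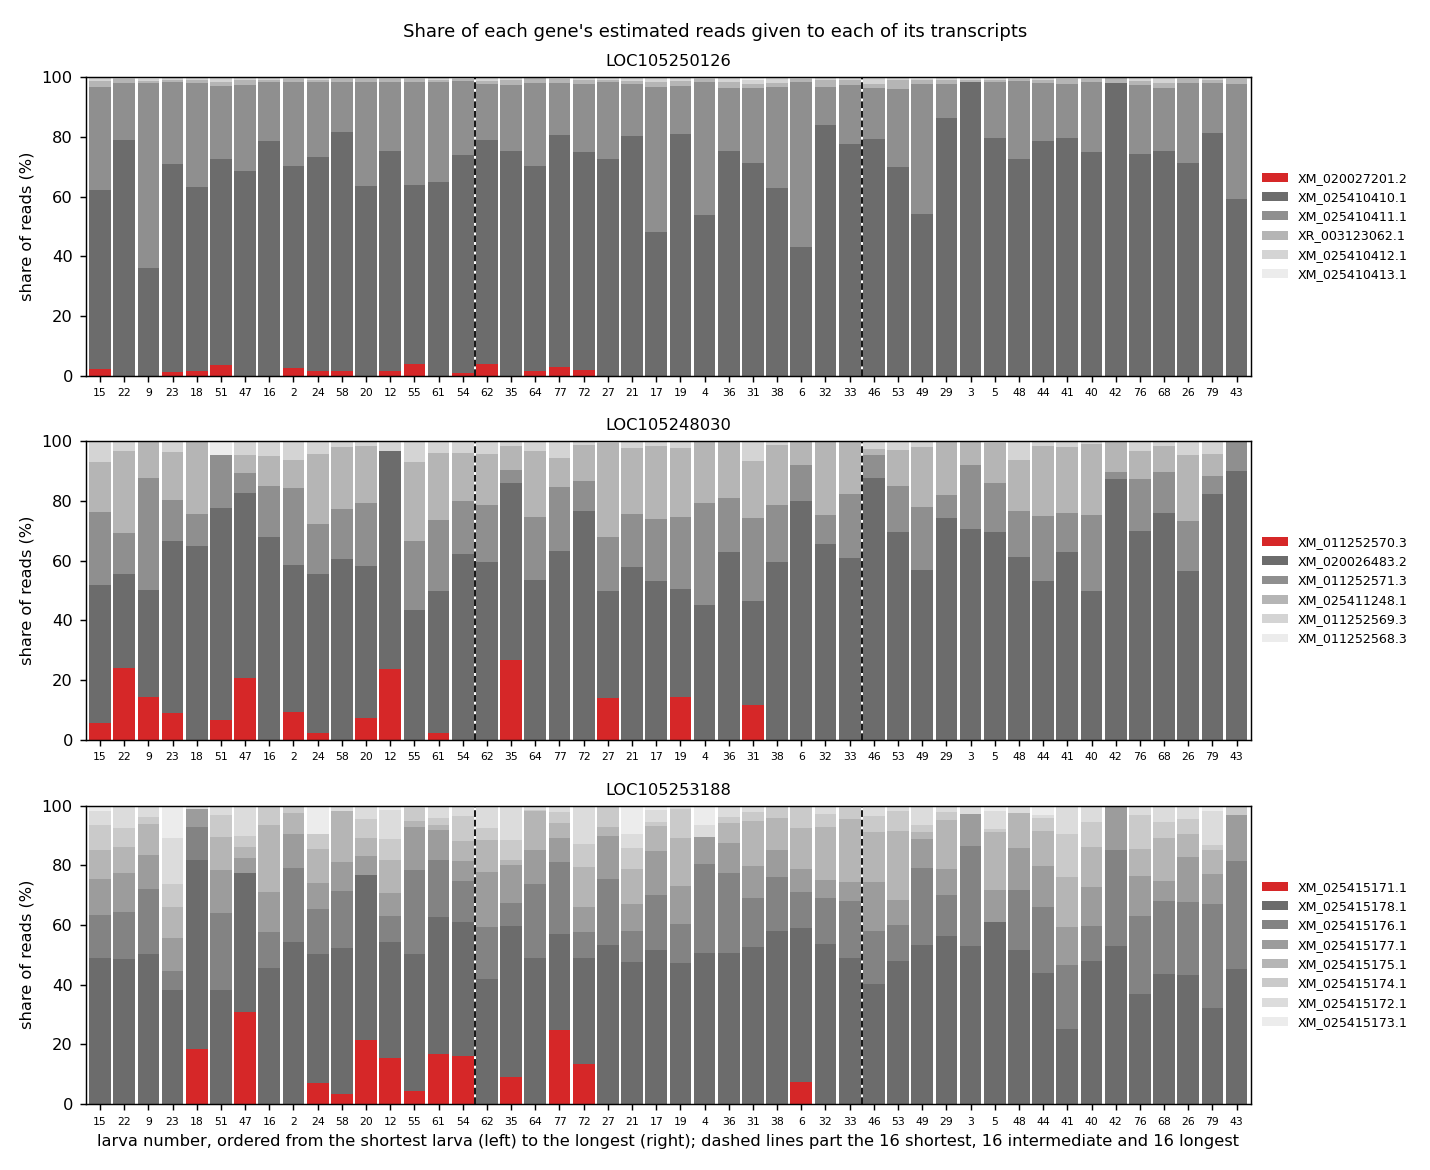
Share of each gene's estimated reads (y axis, %) given to each of its transcripts, with 1 bar per larva ordered from the shortest to the longest (x axis) and dashed lines between the 3 length groups. The transcript at 0 in all 16 longest larvae is red and the other isoforms are grey, the darkest being the main isoform of the gene, which was read in all 48 larvae.

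Depth alone set a limit well under the shares seen. If the larvae listed at 0 had held the lowest share seen where a transcript was present, each of them apart from No. 42 and No. 43 would have had at least 51.8 reads of XM_020027201.2, 54.6 of XM_011252570.3 and 67.7 of XM_025415171.1. In those larvae, a count of 0 allows up to 3 reads. That is 0.00994% to 0.0559% of the gene's reads for XM_020027201.2, 0.0361% to 0.120% for XM_011252570.3 and 0.0540% to 0.148% for XM_025415171.1. These limits cover counting error only and not the division of reads among isoforms.

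Larvae No. 42 and No. 43, which the rule did not use, had 0 reads of all 3 transcripts. At the lowest share seen in the shortest larvae, XM_020027201.2 would have had 38.5 reads in No. 42 and 26.9 in No. 43. XM_011252570.3 would have had 20.4 and 14.5 reads in these larvae, and XM_025415171.1 28.4 and 19.6. Both libraries are shallow, but the absence was within what they could show at those shares, as far as counting error goes. The authors' deposited table of normalized values gives values above 0 in the same numbers of larvae, 14 for XM_020027201.2, 15 for XM_011252570.3 and 13 for XM_025415171.1, and 0 in all 16 longest.

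The 3 transcripts did not mark the same larvae. Of the 16 shortest larvae, 1 held none of them, 2 held 1, 11 held 2 and 2 held all 3. Of the 16 intermediate larvae, 7 held none, 6 held 1, 3 held 2 and 0 held all 3, and the 16 longest held none. XM_020027201.2 and XM_011252570.3 were both present in 6 of 48 larvae, XM_020027201.2 and XM_025415171.1 in 8, and XM_011252570.3 and XM_025415171.1 in 6. In the intermediate larvae the first of these pairs was found together in 0 larvae, the second in 2 and the third in 1.

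Of the 15 high-scoring libraries, 8 were intermediate and 5 were longest larvae, so counts over all larvae mix the score with length. XM_020027201.2 was present in 1 of these 15 and in 13 of the other 33, XM_011252570.3 in 3 of 15 and 12 of 33, and XM_025415171.1 in 1 of 15 and 12 of 33. Among the shortest larvae, XM_020027201.2 was present in 1 of 2 high-scoring libraries, XM_011252570.3 in 2 of 2 and XM_025415171.1 in 0 of 2. Each was present in 9 of the other 14. Among the longest larvae all 3 were at 0 in the 5 libraries with such a score and in the 11 without. The rule chose the transcripts for absence at the long end, so this split of the longest larvae is a description only. In the intermediate larvae, a high score was found in 7 of the 8 longer and in 1 of the 8 shorter, so the score and length cannot be told apart there.

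The 16 intermediate larvae were not used by the rule and allow a test. The question was whether transcripts of the short end also fell with length there. All transcripts entered the same fit, tested on length in mm by edgeR's quasi-likelihood F test with Benjamini-Hochberg adjustment at 0.05. After the tool's filter on low counts, 19311 transcripts were tested, of which 13.9% rose and 11.9% fell with length. Each of the 3 transcripts was at 0 in 12 of the 16 larvae and did not pass that filter, so 0 of 3 were tested. There was no transcript of the long end to test.

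Without the filter, 23784 transcripts were tested and 10.4% fell with length. XM_020027201.2 was called as falling, with an adjusted p of 0.00442 in edgeR. Across the 7 alternative fits that tested it, this adjusted p ran from 0.00368 to 1.00, and it passed in 5. It was 0.0195 with larvae No. 42 and No. 43 added, where 2.00% of all transcripts fell, and 0.0210 with the total count as a covariate, where 3.29% fell. With the first-component score as a covariate it was 0.456, and without the 8 libraries with a high score it was 1.00. XM_011252570.3, with an adjusted p of 0.580 in edgeR, and XM_025415171.1, with 0.562, did not pass, and neither passed in any alternative that tested them. The fitted slopes of transcripts at 0 in most larvae depend on the count added before the logarithm, and are not given. The p-values of such transcripts come from the same fits and are uncertain too. XM_020027201.2 had reads in only 4 of the 16 intermediate larvae, all among the 8 shorter ones.

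A comparison of level without a model was added after the data were seen. Each transcript had reads in only 4 of the 16 intermediate larvae, and the smallest p that the 2-sided exact permutation test can then give is 0.0769, so no outcome could pass 0.05 and the values are a description. XM_020027201.2 averaged 0 TPM in the 8 longer intermediate larvae and 1.49 ± 1.83 TPM in the 8 shorter ones (SD, n = 8), present in 0 and in 4 of them. The exact permutation test of the difference in means gave that smallest p of 0.0769, or 0.231 adjusted over the 3 transcripts. XM_011252570.3 averaged 1.13 ± 2.33 TPM in the longer and 1.99 ± 4.06 TPM in the shorter larvae (SD, n = 8 each), present in 2 and in 2 (exact permutation p = 0.733, adjusted 0.733). XM_025415171.1 averaged 0.16 ± 0.46 TPM in the longer and 1.11 ± 1.79 TPM in the shorter larvae (SD, n = 8 each), present in 1 and in 3 (exact permutation p = 0.323, adjusted 0.485).

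The genes as a whole were tested in the same intermediate larvae, where 25.6% of 10434 genes rose and 22.9% fell with length. LOC105250126 fell, with a slope of -0.73 ± 0.19 log2 per mm (SE, edgeR adjusted p = 0.00533). With the first-component score as a covariate its slope was 0.09, with an adjusted p of 0.894. Without the high-scoring libraries it was -0.09, and with larvae No. 42 and No. 43 added it was close to 0, with adjusted p-values of 1.00 and 0.999. With the total count as a covariate it was -0.46, with an adjusted p of 0.0702. Whether the gene's level followed length over the whole range was not tested. The longest larvae were at 90.9 ± 30.7 TPM and the shortest at 90.3 ± 17.4 TPM (SD, n = 16 each). High-scoring libraries made up 5 of these longest and 2 of these shortest larvae. LOC105248030 had a slope of -0.10 ± 0.12 (SE, adjusted p = 0.485) and LOC105253188 of 0.55 ± 0.24 (SE, adjusted p = 0.0628), and neither passed. LOC105253188 passed in 5 of 25 alternatives and LOC105248030 in 0 of 25. The count of 1 gene of 3 that changed stands beside a background of 48.4% of all genes.

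**Figure D3:**
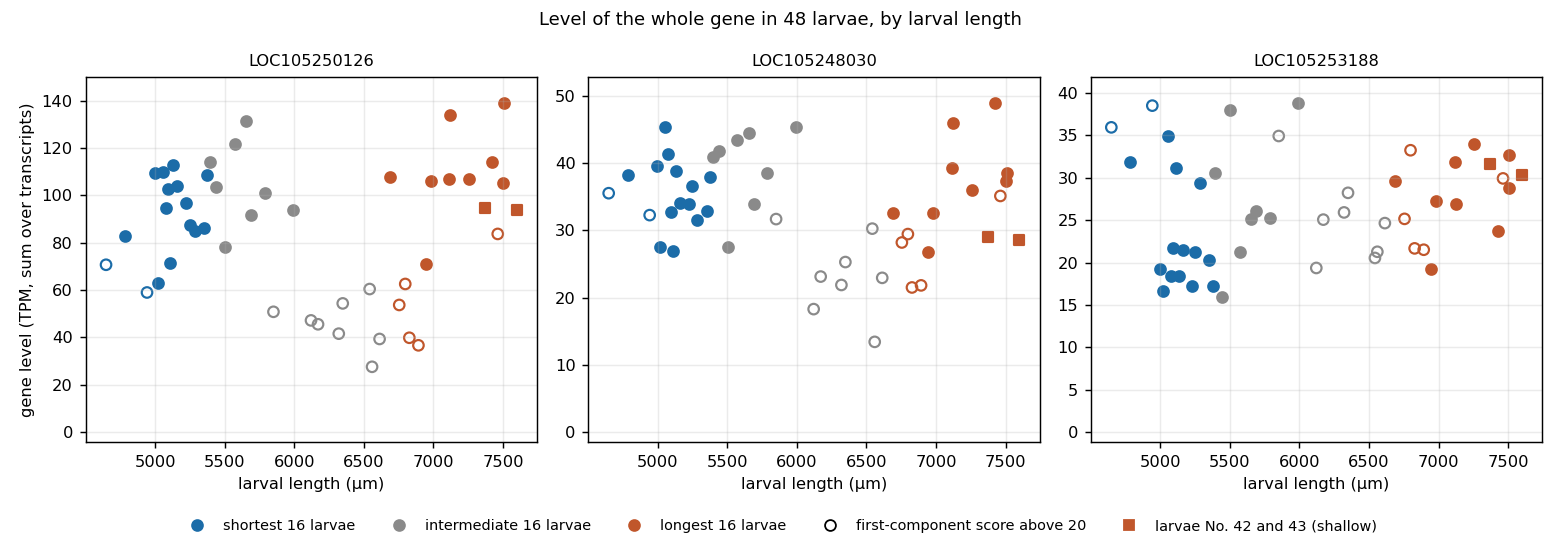
Level of the whole gene in TPM, summed over its transcripts (y axis, from 0), against larval length in µm (x axis), with 1 point per larva and the same colours and symbols as in the plot of reads. All 3 genes were read in every larva. The low values of LOC105250126 between about 5850.88 and 6892.55 µm are mostly open points, the high-scoring libraries.

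The other transcripts of the 3 genes were tested in the same larvae. Of 17 other transcripts, 16 passed the filter on low counts, 0 rose and 1 fell in the intermediate larvae. Their median slope was -0.17, against -0.05 for all transcripts tested, in log2 units per mm. The transcript that fell was XM_025410410.1, the main isoform of LOC105250126, with a slope of -0.84 ± 0.27 (SE, edgeR adjusted p = 0.0333). It no longer passed when larva No. 62, 77, 72, 6 or 33 was left out, with adjusted p-values up to 0.0665. Its slope was -0.02 with larvae No. 42 and No. 43 added (adjusted p = 0.968) and -0.40 with the total count as a covariate (adjusted p = 0.391). It turned to 0.06 with the first-component score as a covariate (adjusted p = 0.988) and to 0.10 without the high-scoring libraries (adjusted p = 1.00). Its partner at the same locus, XM_025410411.1, had a slope of -0.22 ± 0.33 (SE, adjusted p = 0.658). XM_020026483.2, the main isoform of LOC105248030, had a slope of -0.01 ± 0.22 (SE, adjusted p = 0.977), and XM_025415178.1, that of LOC105253188, had 0.82 ± 0.30 (SE, adjusted p = 0.0528).

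The division of reads among isoforms was tested for 4286 genes with edgeR's diffSpliceDGE in the same larvae, and 8.56% of them were called. None of the 3 genes was called: the adjusted p was 0.776 for LOC105250126, 0.726 for LOC105248030 and 0.832 for LOC105253188. That fit lacks the 3 transcripts, which its filter removed. In simulated counts it recovered 0.5% of genes given a change of 1 log2 unit per mm and 37.5% at 2. A gene that was not called may therefore have changed. Of the calls in these simulations, 83.33% and 19.35% were unchanged genes, so a called gene may not have changed. The fit without the filter was not simulated. Without the filter, 14.4% of 4790 genes were called, and LOC105250126 was among them with an adjusted p of 1.63e-07, while LOC105248030 had 0.761 and LOC105253188 had 0.720. It was also called with larvae No. 42 and No. 43 added, where 5.29% of genes were, and with the total count as a covariate, where 3.05% were, and 5 of the 24 alternatives called it in all. All 5 fits that called LOC105250126 included XM_020027201.2, which had reads in 4 intermediate larvae. In 2 further fits that included it the gene was not called, with an adjusted p of 0.0727 with the first-component score as a covariate and of 1.00 without the high-scoring libraries.

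The 3 transcripts are long and come from genes with many isoforms. Their 7008, 5546 and 5332 bases exceed those of 93.5%, 88.6% and 87.4% of the protein-coding transcripts, whose median is 2238 bases. Genes with fewer mRNAs made up 93.3% of all genes for LOC105250126, 95.7% for LOC105248030 and 97.8% for LOC105253188, and 62.4% of genes had a single mRNA. These features were not used by the rule, and 3 transcripts are too few for more than a description.

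Being read in some larvae and at 0 in others was common in these libraries. In all, 1616 transcripts of 1078 genes, or 6.76% of the protein-coding ones, had at least 50 reads in at least 10 of 48 larvae and under 1 read in at least 10. Their median was 3503 bases, and 1.24% of them came from genes with a single transcript, against 31.9% of all protein-coding transcripts. For each of them, the share of longest larvae with at least 50 reads was set against the share of shortest larvae. The share was higher among the longest for 690, higher among the shortest for 901 and equal for 25. The difference, longest minus shortest, had a median of -2.68 percentage points and ran from -71.4 to 68.8. It was -62.5 points for XM_020027201.2, -68.8 for XM_011252570.3 and -56.2 for XM_025415171.1. The rule required low values of them, since it chose them on presence at the short end and absence at the long end. Of the 1616, 5 transcripts were at or below the highest of these 3 values, the 3 among them.

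**Figure D4:**
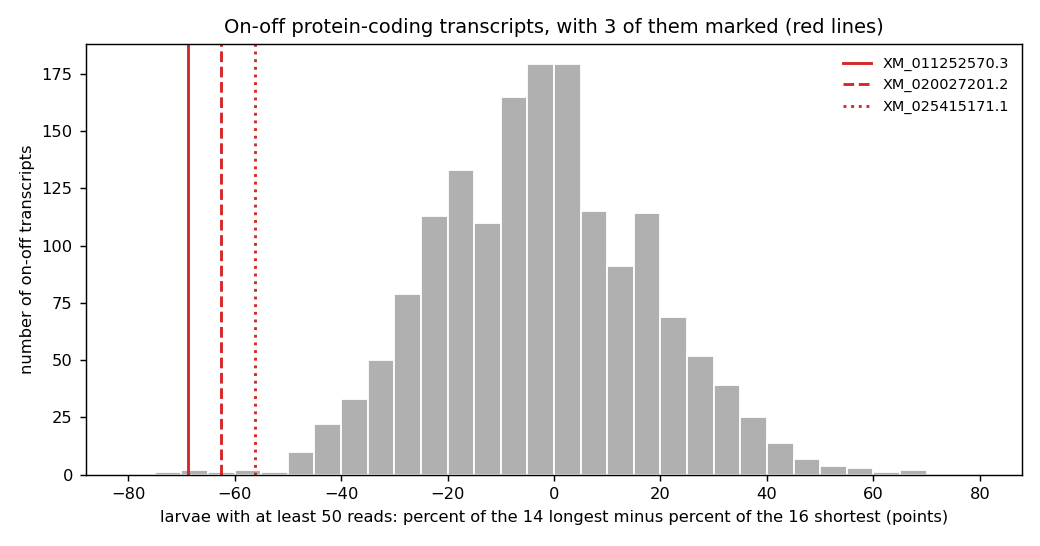
Number of on-off transcripts (y axis), which had at least 50 reads in at least 10 larvae and under 1 read in at least 10, by the difference in the share of larvae with at least 50 reads, in percent of the 14 longest minus percent of the 16 shortest (x axis, points). The red lines mark the 3 transcripts at -68.8, -62.5 and -56.2 points. The rule required low values of them, through presence at the short end and absence at the long end. The grey bars show the spread of all 1616.

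The edge of the rule was thinly filled. Just inside were XM_025415171.1, with 9 of the shortest larvae and at least 107 reads in each, and XM_020027201.2, with 10. Just outside, missing by 1 larva, were XM_011260129.3 of LOC105252642 and XM_011262777.3 of LOC105254234. XM_011260129.3 had 0 reads in the 14 longest larvae and 163 to 687 reads in 7 of the 16 shortest. XM_011262777.3 had 110 reads in 1 of the 14 longest larvae and 64.8 to 307 reads in 7 of the 16 shortest. No transcript of the long end missed by 1 larva. Among transcripts with at least 50 reads in at least 7 of the 14 longest larvae, XM_025407182.1, XM_025413702.1 and XM_011257065.3 each broke the absence in 3 of the 16 shortest, while 5 transcripts did the like at the short end.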

How the data were processed

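The 48 libraries were made from whole-body polyA RNA with a strand-specific kit and read from both ends, per the labels' protocols. Tools listed in the submitters' processing notes are bcl2fastq 2.20, Trim Galore 0.6.7, DESeq, DESeq2 and Salmon, with no word on what each was used for. The sources used here give no version, index or setting of Salmon and no genome build. Each larva's deposited table holds estimated counts and TPM per transcript, per the file headers, whose column names are salmon's. Transcript lengths also come from these tables. A further table, deposited for all larvae together, holds a normalized signal per transcript. How the authors normalized it is not stated. It has 1 cell that is not a number and 0 columns of other samples, and was used only for an alternative. No pair of libraries held identical values.

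The 26315 transcripts were matched to 13878 genes in RefSeq's gene table for Cflo_v7.5, with 25811 matches by accession, 397 by symbol and 106 by tRNA name. The remaining transcript names no gene, took at most 0.00124% of a library and was left out. No product names, sequences or coordinates were used, so the planned lists of genes by product name were not run. A gene's level is the sum over its transcripts, and a share is a transcript's reads over those of its gene.

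Estimated counts were rounded. The test of length in mm was edgeR's quasi-likelihood F test (edgeR 4.0.16 in R 4.3.3, TMM factors), in the 16 intermediate larvae alone. Transcripts and genes had to pass filterByExpr, and the Benjamini-Hochberg adjustment ran over all that did, at 0.05. The SE of a slope is its size over the square root of F. Isoform usage was tested with diffSpliceDGE. The filter removed all 3 transcripts, so the unfiltered fit and an exact permutation test over larvae stand beside it. The first component comes from log2 CPM values (prior count 2) of all 48 libraries. Other tools were DESeq2 1.42.0, limma 3.58.1, Python 3.11.15, pandas 2.3.3, scipy 1.17.1 and matplotlib 3.10.9. The scripts were tested on counts simulated for the intermediate larvae, with a change of 1 or 2 log2 units per mm given to 200 features. The transcript test recovered 15.0% and 53.5% of them, and the gene test 52.0% and 83.5%. The usage test recovered 0.5% and 37.5% of 200 genes whose main isoform was changed. Of its calls, 83.33% and 19.35% were unchanged genes. The deposited columns were taken by the larva numbers in the labels.

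The rule named all transcripts present at 1 end, since there were at most 15, each with the other transcript of its gene that had the highest mean reads where it was absent, and the transcripts just inside and just outside the threshold. XM_025410411.1, XM_025411248.1, XM_011252571.3 and XM_025415173.1, which belong to the same genes, were named after their values were seen. The transcripts, lists and tests were chosen with earlier results of these data known.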

Additional observations from a re-analysis of the deposited data

How the results depend on the processing

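The 3 transcripts of the short end, and 0 of the long end, were found under 8 other settings of the rule: larvae No. 42 and No. 43 kept, presence at 25 or 100 reads, absence under 5 reads, no larva or at most 2 larvae breaking the absence, reads scaled to the median library, and the authors' normalized table. These 8 settings could hardly drop the 3, which had 0 reads in every longest larva and at least 107 reads in each shortest larva with them. Their return is therefore no test of them. The settings could have added other transcripts, and none did. With gene totals in place of transcripts, 0 genes met the rule at either end. Without the high-scoring libraries, which leaves 9 longest and 14 shortest larvae, 10 transcripts met it at the short end, the 3 among them, and 0 at the long end. That setting asked for presence in fewer larvae and for absence in fewer larvae than the main rule. The counts of 10 and 3 are therefore not like for like, and the reason for the difference was not tested. With at most 3 larvae breaking the absence, 3 met it at the long end and 8 at the short end, and with at most 4 larvae 12 and 19. The limits of 3 and 4 larvae and the fits without the high-scoring libraries were chosen after seeing the data. Of the 3 transcripts, 0 were called as falling in the planned fit, which tested none of them. With no filter, with larvae No. 42 and No. 43 added and with the total count as a covariate, 1 was called. Leaving out 1 larva at a time gave 0 to 1, with 1 without No. 6 and without No. 32, because the filter then let transcripts through. Over all transcripts, 90 rose and 406 fell with No. 42 and No. 43 added, 1547 and 666 with the total count, 4 and 0 with the first-component score as a covariate (1763 at an unadjusted p under 0.05), and 0 and 0 in edgeR without the high-scoring libraries (620 unadjusted). The causes were not tested. Leaving out 1 larva gave 1705 to 2981 rising and 1503 to 2879 falling, with both lowest counts without No. 32. Of the 3 genes, 1 changed in total level in the planned fit. That was 2 with the rank of length and with limma-voom, 0 with No. 42 and No. 43, with the total count, with the first-component score and without the high-scoring libraries, and 1 to 2 with 1 larva left out, with 2 without No. 64, 17 or 6. For isoform usage, 0 of the 3 genes became 1 with no filter, with No. 42 and No. 43 and with the total count, and 0 to 1 with 1 larva left out, with 1 without No. 6 and without No. 32. With the first-component score as a covariate, slopes in log2 per mm turned to 0.0923 for LOC105250126, 0.18 for LOC105248030, -0.49 for LOC105253188 and 0.0562 for XM_025410410.1, all with an adjusted p over 0.05. Without the high-scoring libraries, they turned to 0.38 for LOC105248030 and 0.10 for XM_025410410.1. No paired analysis was possible because no larva number is shared between length groups. Depth limits the shallow larvae No. 42 and No. 43 most, and the division of reads among isoforms limits every 0.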

Other observations

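The transcript that missed the rule by 1 larva, XM_011260129.3, belongs to a gene in which another isoform ran the other way, a pair chosen after the values were seen and given with no test. LOC105252642 has 9 transcripts in the files. XM_011260129.3, of 6544 bases, was present in 7 of the 16 shortest, 5 of the 16 intermediate and 0 of the 16 longest larvae, with at most 687 reads. XM_011260126.3, of 6834 bases, was present in 0 of the 16 shortest, 2 of the 16 intermediate and 5 of the 16 longest larvae, with 206 to 518 reads in those 5. The gene as a whole had 39.05 ± 10.4 TPM in the shortest, 30.3 ± 17.5 in the intermediate and 28.5 ± 15.8 in the longest larvae (SD, n = 16 each). Its main isoform, XM_011260130.3, held 65.4 ± 7.84%, 67.0 ± 12.9% and 68.8 ± 9.95% of the reads in the same order of groups (SD, n = 16 each).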
